A study of Drosophila melanogaster with 6 samples.

Results

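Both SF1 and Hrb87F, RNA-binding proteins of splicing, were knocked down in Drosophila muscle, and the changes that both knockdowns had in common were measured by mRNA-Seq of the indirect flight muscle (IFM). The 4 knockdown libraries (SF1-IR and Hrb87F-IR, 2 each) were taken as 1 group and set against the 2 wild-type (WT) libraries, which together are all 6 libraries of the series. A gene was counted as common where its level in each of the 4 knockdown libraries lay above both WT libraries, or each of the 4 below both. This held for 2557 of the 11753 genes tested. Exons were divided into bins wherever the transcripts of a gene differ in an exon boundary, and the use of a bin is its share of the counts of its gene. Of 53818 exon bins tested, 175 had an unadjusted edgeR p under 0.01 for a change in use (0.325%). On one side in all 4 libraries were 132 of these, 3 of them with a Benjamini-Hochberg adjusted p under 0.05.

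SF1 is the splicing factor that binds the branch point of an intron early in spliceosome assembly, and Hrb87F is a Drosophila member of the hnRNP A family, RNA-binding proteins that influence the choice of splice sites. The IFM are the fibrillar, stretch-activated muscles that power flight. They make large amounts of sarcomere protein, are filled with mitochondria, and depend on muscle-specific splice forms of many sarcomere genes.

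The knockdown flies were Mef2-Gal4 / SF1-RNAi (GD5176) and Mef2-Gal4 / Hrb87F-RNAi (TRiP.JF01757), and the WT flies were Mef2-Gal4 / +. All 3 genotypes carried the driver, which acts in all muscles throughout their development, and only the knockdown flies carried a hairpin. The presence of a hairpin and the loss of its target therefore cannot be told apart, and each target was hit by 1 hairpin line. Flies were raised at 27 °C and IFM was dissected at 72 h after puparium formation (APF), when the myofibrils are maturing. Each library was made from polyadenylated RNA of pooled muscle. Nothing states that the replicates were separate cultures, so the spread between them may be technical. In bulk RNA, fewer cells of a type and less RNA per cell cannot be told apart.

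Library totals ran from 63393347 to 72057010 exon-bin counts. The targeted genes were checked first. SF1 had 25.6 and 19.3 CPM (counts relative to the library total, scaled with TMM factors) in SF1-IR and 31.9 and 31.3 CPM in Hrb87F-IR, against 24.6 and 29.9 CPM in WT. The SF1-IR libraries thus overlapped WT for the gene named in their label, and every direction given for SF1-IR rests on that label. Hrb87F had 26.3 and 28.7 CPM in SF1-IR and 14.8 and 18.1 CPM in Hrb87F-IR, against 29.8 and 30.5 CPM in WT, so that the Hrb87F-IR libraries were the lowest. Among IFM markers, Act88F, TpnC4, fln and Mhc were present at 4464 to 110474 CPM in every library and were lower in all 4 knockdown libraries than in WT, while salm and bru1 overlapped WT.

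Several features of the libraries touch every gene result. Markers of testis, summed over the 16 tested of 18, came to 9.81 and 108 CPM in SF1-IR and 7.36 and 30.6 CPM in Hrb87F-IR, against 143 and 5.45 CPM in WT. SF1-IR replicate 2 and WT replicate 1 were the highest. Fits were also run without these libraries and with testis marker level as a term. Neuron markers summed to 562 to 732 CPM in the knockdown libraries, against 506 and 565 CPM in WT, with 3 of 8 higher in all 4. Of 54 epidermis and cuticle markers 10 were higher in all 4 (18.5%) and 4 lower, with sums of 3655 to 4446 CPM in the knockdown libraries, against 3672 and 4079 CPM in WT. Of 4 sex markers 2 were lower in all 4. Over all genes tested, 11.1% were lower and 10.7% higher in all 4, the background for the counts of these markers. The part of these markers in the results was not tested. The series also holds a table of counts per gene. Across 16072 genes its columns had a Spearman correlation of 0.957 to 0.964 with the exon-bin sums of the same knockdown library, but of 0.924 and 0.855 for WT, whose exon-bin sums correlated better with knockdown columns of that table. The knockdown columns of that table total 29644449 to 31484532 counts, against 70664995 and 112295405 in its WT columns. The WT values of the sources therefore differ, and whether the WT columns of both tables hold the same libraries could not be settled. Results here use the exon-bin counts, and for a number of genes and lists the values from the counts per gene are given beside them. Over all genes tested with the counts per gene, all 4 knockdown columns lay below both WT columns for 28.0% and above them for 27.9%. Levels quoted from that table are scaled by its library totals only, while its fold changes and its counts of genes above or below WT use TMM factors. Scaling by library size alone, without TMM factors, moved the median log2 fold change of all genes from -0.016 to 0.26, so changes are read relative to that median.

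With the 4 knockdown libraries as 1 group, edgeR's quasi-likelihood test called 0 of 11753 genes (0.0%) at a Benjamini-Hochberg adjusted p under 0.01. The smallest adjusted p was 0.150. At an unadjusted p under 0.05 there were 1159 genes, 606 lower and 553 higher in the knockdowns. DESeq2 on the same groups called 202 genes, 160 lower and 42 higher. In this design a difference between SF1-IR and Hrb87F-IR counts as spread. Without any test, all 4 knockdown libraries lay below both WT libraries for 1299 genes (11.1%) and above them for 1258 genes (10.7%). At least a 2-fold change was found for 192 and 256 of these. With library size alone the same counts were 445 below and 3381 above.

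A fit with 3 groups keeps the knockdowns apart, takes the spread within each pair of replicates, and tests the mean of both knockdown effects. It called 98 genes at an adjusted p under 0.01, of which 57 were lower (0.485% of genes tested) and 41 higher (0.349%). Of these, 83 lay on one side in all 4 libraries, 56 below and 27 above WT. Genes are said to have fallen or risen only where they are among these 83, and their fold changes and standard errors (SE) are those of this fit on the log2 scale. Each effect was then read for the knockdowns separately. Of the 56 falls, 46 passed the same threshold in SF1-IR alone and 3 in Hrb87F-IR alone, while 42 had an adjusted p under 0.05 in both. Of the 27 rises, all 27 passed in SF1-IR alone, 0 in Hrb87F-IR alone, and 9 had an adjusted p under 0.05 in both. All 27 rises were larger in SF1-IR.

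With testis marker level as a term this fit called 704 genes, among them all 98. Its calls depended on each library. Without SF1-IR replicate 1, either Hrb87F-IR replicate or WT replicate 2 the count was 0, without SF1-IR replicate 2 it was 25, and without WT replicate 1 it was 19. Of 36 named genes called with all libraries, 7 remained in both of the last 2 fits (Thor, Cyp6a20, CG5793, FANCI, Cyp12c1, RPA1 and asRNA:CR44029).

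Endoplasmic reticulum (ER) chaperones were lower in both knockdowns. Hsc70-3, the ER Hsp70 known as BiP, had 398 and 351 CPM in SF1-IR and 487 and 481 CPM in Hrb87F-IR, against 808 and 1040 CPM in WT. All 4 knockdown libraries lay well below both WT libraries, and the gene fell by 1.12 on the log2 scale (SE 0.12, edgeR adjusted p = 0.0074). In the fit with 1 knockdown group the adjusted p was 0.178 with a log2 fold change of -1.11. Gp93, the ER Hsp90, had 53.7 and 55.2 CPM in SF1-IR and 66.7 and 67.5 CPM in Hrb87F-IR, against 114 and 146 CPM in WT, and fell by 1.10. P58IPK, a co-chaperone of the ER lumen, had 31.1 and 29.8 CPM in SF1-IR and 38.8 and 41.6 CPM in Hrb87F-IR, against 66.1 and 74.5 CPM in WT, and fell by 1.00. For both genes the groups did not overlap, and SF1-IR did not differ from Hrb87F-IR at an adjusted p under 0.05. Der-1, a Derlin of ER-associated degradation, fell by 1.11 and CaBP1, of the protein disulfide isomerase family, by 0.92.

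Over the ER chaperone and unfolded protein response list, 18 of 27 genes were lower in all 4 libraries (66.7%, against 11.1% of all genes) and 1 was higher. The median log2 fold change was -0.48, against -0.02 over all genes. The summed level was 1565 and 1527 CPM in SF1-IR and 1669 and 1696 CPM in Hrb87F-IR, against 2264 and 2683 CPM in WT. The 5 genes named above were the ones called. Of the signalling members, Xbp1, the transcription factor of the response, had 421 and 436 CPM in SF1-IR and 378 and 371 CPM in Hrb87F-IR, against 377 and 402 CPM in WT, and so overlapped WT. The sensors Ire1 and PEK overlapped WT too, and Atf6 was the 1 gene above WT in all 4 libraries (not called). GCS2alpha, a glucosidase of ER glycoprotein processing, and Sec23, a coat protein of vesicles leaving the ER, were chosen after their values were seen, and fell by 0.92 and 0.90. With library size alone 13 members were lower and 4 higher, and the median was -0.21.

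The ER result turned round with the other WT columns. In the counts per gene Hsc70-3 had 401 and 391 CPM in SF1-IR and 478 and 497 CPM in Hrb87F-IR, against 154 and 137 CPM in WT, and 13 of 27 list members lay above and 3 below WT. The knockdown values were close to those of the exon-bin sums, so the change of direction lies in the WT columns. With those columns 82 of the 83 called common genes had a value, 55 of them on the same side and 12 on the opposite side of WT.

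Genes of oxidative phosphorylation were lower in both knockdowns, and stayed so with either set of WT columns. Of 65 nuclear genes, 55 were lower in all 4 libraries (84.6%) and 0 were higher, with a median log2 fold change of -0.50. Their summed level was 75557 and 81947 CPM in SF1-IR and 110720 and 101997 CPM in Hrb87F-IR, against 122747 and 131137 CPM in WT. SF1-IR was the lowest and Hrb87F-IR lay between SF1-IR and WT. With library size alone 38 were lower and 0 higher (median -0.24), and with the counts per gene 62 of 71 were lower and 4 higher (median -1.40).

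Members of all 5 respiratory complexes lay below WT. Those of complex I, which oxidises NADH, did so in 27 of 32 cases (median -0.58), of complex II in 4 of 4 (-0.58), of complex III in 8 of 9 (-0.49), of cytochrome c oxidase, complex IV, in 7 of 8 (-0.55) and of ATP synthase, complex V, in 8 of 11 (-0.42). Against WT, the median of complex I was -0.71 for SF1-IR, with -0.40 for Hrb87F-IR. The 6 genes called were ND-B14.5A, ND-AGGG and ND-30 of complex I, SdhD of complex II, and COX7AL2 and COX5B of complex IV.

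ND-30 had 251 and 297 CPM in SF1-IR and 451 and 449 CPM in Hrb87F-IR, against 732 and 818 CPM in WT, and fell by 1.14 (SE 0.10, edgeR adjusted p = 0.0043). ND-B14.5A had 276 and 284 CPM in SF1-IR and 325 and 330 CPM in Hrb87F-IR, against 552 and 605 CPM in WT, and fell by 0.93. In both genes every knockdown library was below both WT libraries. COX7AL2 fell by 0.89 with the exon-bin sums, but had a log2 fold change of 1.33 with the counts per gene. Of the 8 tested oxidative phosphorylation genes of the mitochondrial genome, 3 were lower and 2 higher in all 4 libraries. The shares were 37.5% and 25.0%, against 11.1% and 10.7% of all genes.

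The pathways that feed the respiratory chain also lay below WT, with fewer calls. In glycolysis, 10 of 14 genes were lower in all 4 libraries (71.4%, against 11.1% of all genes) and 0 were higher (median -0.45). Gpdh1, the glycerol-3-phosphate dehydrogenase of the shuttle that carries electrons into mitochondria, had 779 and 836 CPM in SF1-IR and 1847 and 1709 CPM in Hrb87F-IR, against 2589 and 2273 CPM in WT. It fell by 1.02 (SE 0.09) and was the only glycolysis gene called. In Hrb87F-IR alone its log2 fold change was -0.45 (edgeR adjusted p = 0.11). Members not called included Pfk, phosphofructokinase, with a log2 fold change of -0.77. In the TCA cycle, 6 of 12 genes lay below WT in all 4 libraries, 0 above, and 0 were called (median -0.38), 4 of them at an unadjusted p under 0.05 in the fit with 1 knockdown group. With library size alone the medians were -0.19 for glycolysis and -0.12 for the TCA cycle, against 0.26 over all genes.

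Ribosomal proteins were described as a cytoplasmic and a mitochondrial list. Of 81 tested genes for cytoplasmic ribosomal proteins, 54 were lower in all 4 libraries (66.7%) and 0 higher, with a median of -0.33 and 3 genes called (RpL34b, RpLP0 and RpL30). Their summed level was 41636 and 44962 CPM in SF1-IR and 39755 and 38406 CPM in Hrb87F-IR, against 49889 and 53782 CPM in WT. Here Hrb87F-IR was the lowest. RpLP0, a protein of the ribosomal stalk, had 621 and 685 CPM in SF1-IR and 520 and 480 CPM in Hrb87F-IR, against 960 and 1092 CPM in WT, and fell by 0.84. With library size alone 15 members were lower and 8 higher and the median was -0.05, which is still below that of all genes at 0.26. Among mitochondrial ribosomal proteins 19 of 71 were lower (26.8%, against 11.1% of all genes) and 6 higher (8.45%, against 10.7%). Their median of -0.13 became 0.13 with library size alone. The 3 genes called, mRpS21, mRpL14 and mRpL27, fell by 0.95, 0.82 and 0.79, and mRpS21 had a log2 fold change of 2.02 with the counts per gene. With those counts 77 of 90 cytoplasmic (median -1.39) and 55 of 73 mitochondrial members (median -0.87) were lower. The difference between the lists was not tested.

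**Figure D1:**
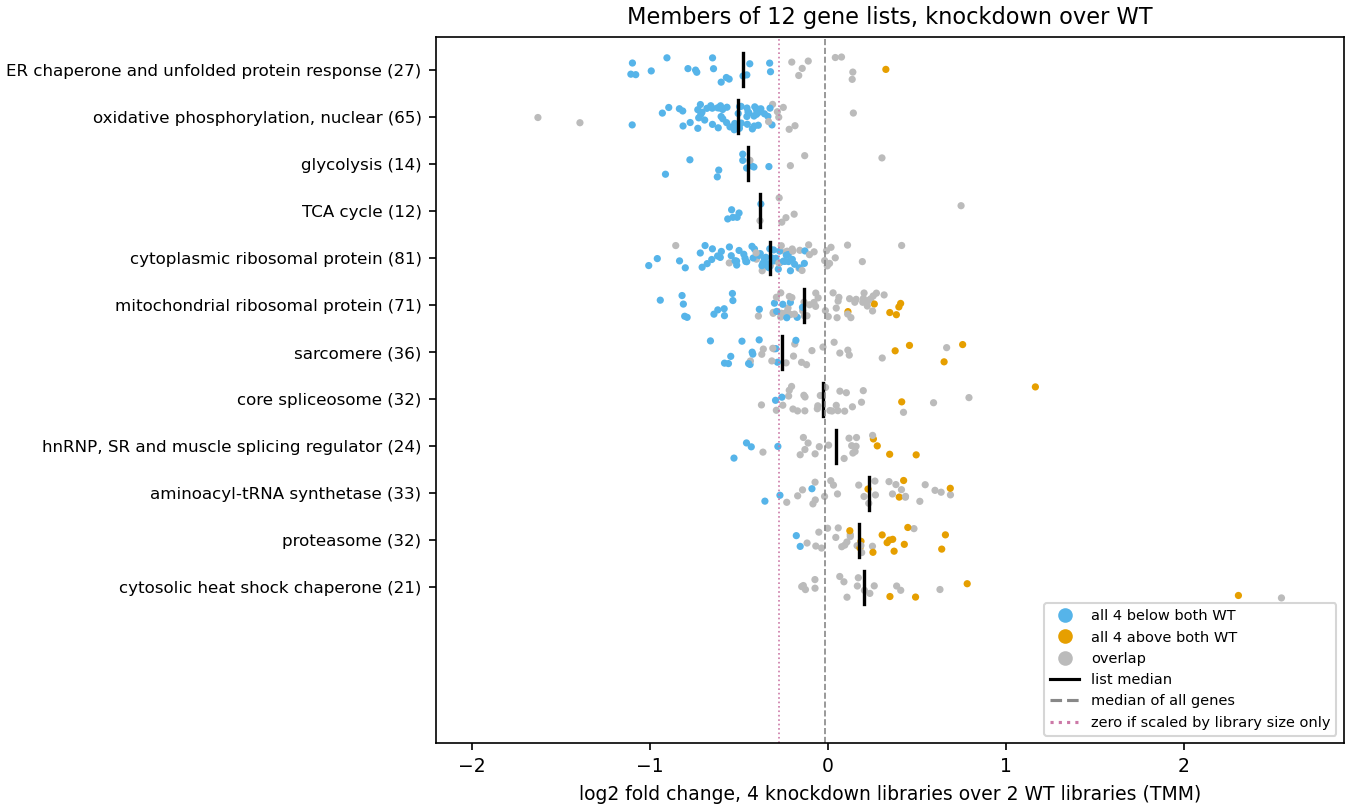
Log2 fold change of each tested member of 12 gene lists, 4 knockdown libraries as 1 group over 2 WT libraries, with the number tested in brackets. Blue points lie below and orange points above WT in all 4 knockdown libraries, grey points overlap, black bars are list medians, and the dotted line is where 0 would lie with library size alone, which turns the sign of the mitochondrial ribosomal protein (-0.13), sarcomere (-0.26) and core spliceosome (-0.03) medians. Nuclear oxidative phosphorylation genes are nearly all left of the median of all genes, and the proteasome (0.17) is right of it, though its median is -0.36 with the counts per gene.

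Sarcomere genes were tested for level as well as for exon use. Of 36 genes, 13 lay below WT in all 4 libraries (36.1%, against 11.1% of all genes) and 4 above (11.1%, against 10.7%). Of the 36, 0 were called. In the fit with 1 knockdown group, 8 were lower and 4 higher at an unadjusted edgeR p under 0.05. Mhc, the only muscle myosin heavy chain gene, had 72160 and 74224 CPM in SF1-IR and 60243 and 50901 CPM in Hrb87F-IR, against 92760 and 110474 CPM in WT. All 4 were lower, with an adjusted p of 0.023 in the fit with 3 groups. Act88F, the flight muscle actin, lay between 31310 and 37244 CPM in the knockdown libraries, against 47842 and 50247 CPM in WT. Act79B, an actin of tubular muscle, was above WT in all 4 libraries with a log2 fold change of 0.65. The median of the list was -0.26 and became 0.01 with library size alone, below that of all genes in either case.

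Proteasome subunits lay on the other side. Of 32 genes, 13 were higher in all 4 libraries (40.6%, against 10.7% of all genes) and 2 were lower, with a median of 0.17 and 0 called (8 higher and 0 lower at an unadjusted p under 0.05). The summed level was 1217 and 1250 CPM in SF1-IR and 1351 and 1324 CPM in Hrb87F-IR, against 1157 and 1140 CPM in WT. With library size alone 25 were higher, but with the counts per gene 19 of 31 were lower and 4 higher. Of 21 cytosolic heat shock chaperones, 4 were higher (19.0%) and 0 lower (median 0.21). With the counts per gene, however, 6 of 20 were higher and 7 lower (median -0.24). Among them Hsc70-4, the main cytosolic Hsp70, had 529 and 558 CPM in SF1-IR and 614 and 596 CPM in Hrb87F-IR, against 431 and 470 CPM in WT (log2 0.35, not called).

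Of the splicing machinery, 1 of 32 core spliceosome genes was called, against 0.485% called lower and 0.349% called higher over all genes tested. Of 32 core spliceosome genes 2 were lower and 2 higher in all 4 libraries (6.25% each, against 11.1% and 10.7% of all genes). With the counts per gene 14 of 33 were lower and 3 higher. The only one called was Brr2, the helicase that unwinds U4/U6 RNA, with 98.2 and 97.4 CPM in SF1-IR and 40.4 and 32.9 CPM in Hrb87F-IR, against 29 and 30.9 CPM in WT. It rose by 1.00 on the log2 scale (SE 0.11, edgeR adjusted p = 0.0088), with a log2 fold change of 1.71 for SF1-IR, set beside 0.29 for Hrb87F-IR (adjusted p = 0.34). Of 24 hnRNP, SR and muscle splicing regulators 4 were lower, among them Rbfox1, and 4 were higher, among them mbl (16.7% each). Of these 24, 0 were called (1 lower and 1 higher at an unadjusted edgeR p under 0.05). Of 33 aminoacyl-tRNA synthetases 3 were lower and 4 higher (9.09% and 12.1%), near the shares of all genes.

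Thor, AsnS and Bcat were among the 10 largest falls at 1 log2 CPM or more. Thor, the 4E-BP that holds back cap-dependent translation, had 96.4 and 79.5 CPM in SF1-IR and 35.8 and 39.3 CPM in Hrb87F-IR, against 178 and 187 CPM in WT, and fell by 1.67 (SE 0.10, edgeR adjusted p = 0.0027). AsnS, asparagine synthetase, had 6.08 and 7.05 CPM in SF1-IR and 7.22 and 6.68 CPM in Hrb87F-IR, against 16.5 and 19.3 CPM in WT, and fell by 1.40. Bcat, the branched-chain amino acid aminotransferase, had 15.1 and 13.6 CPM in SF1-IR and 9.23 and 13.2 CPM in Hrb87F-IR, against 33.3 and 31.5 CPM in WT, and fell by 1.36. With the counts per gene Thor overlapped WT, with a log2 fold change of -0.20. AsnS (-0.83) and Bcat (-1.002) remained below WT in all 4 libraries there with TMM factors. Scaled by library totals only, AsnS overlapped WT, with 6.89 to 8.83 CPM in the knockdown libraries, against 7.87 and 11.9 CPM in WT. For AsnS and Bcat the knockdowns were within 0.08 and 0.35 log2 of each other. Within the list of integrated stress and Xrp1 genes, 3 of 17 were lower (Thor, rpr and aay, 17.6%) and 1 was higher (trbl, 5.88%). Over all genes the shares were 11.1% and 10.7%. Thor was the only gene of the list called. Of 46 translation initiation and elongation factors 8 were lower (17.4%) and 1 higher (2.17%). Of the 46, 0 were called by edgeR (5 lower and 0 higher at an unadjusted p under 0.05). Xrp1, a stress-induced transcription factor, had 651 and 542 CPM in SF1-IR and 377 and 331 CPM in Hrb87F-IR, against 381 and 425 CPM in WT, so that its level overlapped WT. This depended on the WT columns: with the counts per gene Xrp1 had 631 and 582 CPM in SF1-IR and 354 and 333 CPM in Hrb87F-IR, against 152 and 164 CPM in WT, all 4 above WT.

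CG11825 had the largest fall of the 98 called genes. It had 0.814 and 0.850 CPM in SF1-IR and 0.274 and 0.192 CPM in Hrb87F-IR, against 6.21 and 6.29 CPM in WT, and fell by 3.82 (SE 0.26, edgeR adjusted p = 0.0028). Of the 83 called common genes, only CG11825 and Thor were past an adjusted p of 0.01 in each knockdown alone. In the counts per gene CG11825 had 0.553 and 0.476 CPM in SF1-IR and 0.0675 and 0.128 CPM in Hrb87F-IR, against 0.524 and 0.232 CPM in WT, so that SF1-IR overlapped WT there. The other large falls were Cyp6a20 (by 2.5), a cytochrome P450, SmydA-4 (by 1.76), lncRNA:CR44299 (by 1.51), CG5793 (by 1.5), CG14864 (by 1.36) and CG16721 (by 1.28). For Cyp6a20 the log2 fold change was -0.62 in SF1-IR alone (edgeR adjusted p = 0.11), set beside -4.38 in Hrb87F-IR. In Hrb87F-IR alone it was -0.58 for CG5793 and -0.96 for CG14864 (edgeR adjusted p = 0.083 and 0.063). With the counts per gene Cyp6a20 overlapped WT, with 15.1 and 15.8 CPM in SF1-IR and 0.742 and 1.18 CPM in Hrb87F-IR, against 9.98 and 6.71 CPM in WT. GstT3, a glutathione S-transferase, fell by 1.23, with a log2 fold change of -0.60 in Hrb87F-IR alone (edgeR adjusted p = 0.15). SmydA-4 had 6 and 6 CPM in SF1-IR and 13.9 and 10.1 CPM in Hrb87F-IR, against 26.6 and 30.8 CPM in WT. CG16721 had a near equal level in the knockdown libraries, with 40.5 and 35.1 CPM in SF1-IR and 36.3 and 37.1 CPM in Hrb87F-IR, against 77.3 and 104 CPM in WT.

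Cyp12c1, FANCI and RPA1 were among the 10 largest rises at 1 log2 CPM or more. Cyp12c1, a mitochondrial P450, had 18.7 and 25.0 CPM in SF1-IR and 6.12 and 5.75 CPM in Hrb87F-IR, against 1.20 and 1.14 CPM in WT, and rose by 3.28 (SE 0.20, edgeR adjusted p = 0.0027). FANCI, of the Fanconi pathway of DNA crosslink repair, had 15.5 and 15.2 CPM in SF1-IR and 10.7 and 10.2 CPM in Hrb87F-IR, against 3.05 and 2.63 CPM in WT, and rose by 2.15. Both had an adjusted p under 0.05 in each knockdown alone. RPA1, which coats single-stranded DNA, had 178 and 180 CPM in SF1-IR and 23.9 and 22.1 CPM in Hrb87F-IR, against 18.6 and 17.5 CPM in WT. It rose by 1.83, with a log2 fold change of 3.31 for SF1-IR, set beside 0.35 for Hrb87F-IR. Xpc, of nucleotide excision repair, was chosen after its values were seen and rose by 1.27. In Hrb87F-IR alone the edgeR adjusted p was 0.16 for RPA1 and 0.34 for Xpc. Of 72 cytochrome P450 genes 6 were higher in all 4 libraries (8.33%, against 10.7% of all genes) and 9 lower (12.5%, against 11.1%).

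Other rises had a wide gap between the knockdowns. The gene srl, the Drosophila PGC-1 homologue that drives genes of mitochondria, had 32.3 and 23.7 CPM in SF1-IR and 4.87 and 4.71 CPM in Hrb87F-IR, against 3.23 and 2.48 CPM in WT, and rose by 2.02. CG10445 rose by 3.05, with 5.24 and 5.26 CPM in SF1-IR and 0.503 and 0.454 CPM in Hrb87F-IR, against 0.196 and 0.184 CPM in WT. In Hrb87F-IR alone the log2 fold change was 0.74 for srl and 1.323 for CG10445, with edgeR adjusted p of 0.16 and 0.14. Tdh (by 2.38), Rdh1 (by 2.27), CR14033 (by 2.15), CG32641 (by 1.89) and asRNA:CR44029 (by 1.83) also rose. Whether the counting used strand is not stated, so reads of asRNA:CR44029 and of the gene on the other strand cannot be told apart. It lies within the span of unc-13, which also rose. The log2 fold change of unc-13 was 3.14 for SF1-IR, set beside 0.33 for Hrb87F-IR (edgeR adjusted p = 0.41). In exon-bin sums asRNA:CR44029 had 123 and 105 CPM in SF1-IR, with 21.2 and 22.2 CPM in Hrb87F-IR. In the counts per gene asRNA:CR44029 had 3.48 and 2.80 CPM in SF1-IR, with 4.25 and 5.57 CPM in Hrb87F-IR. WT there had 0.170 and 0.338 CPM, so the rise remained, but it was not larger in SF1-IR.

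SF1-IR set directly against Hrb87F-IR, a contrast without WT, gave calls for 33 of the 83 common genes at an adjusted p under 0.01, against 250 of all genes tested (2.13%). The common genes were themselves selected in a fit that holds the same 4 libraries.

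**Figure D2:**
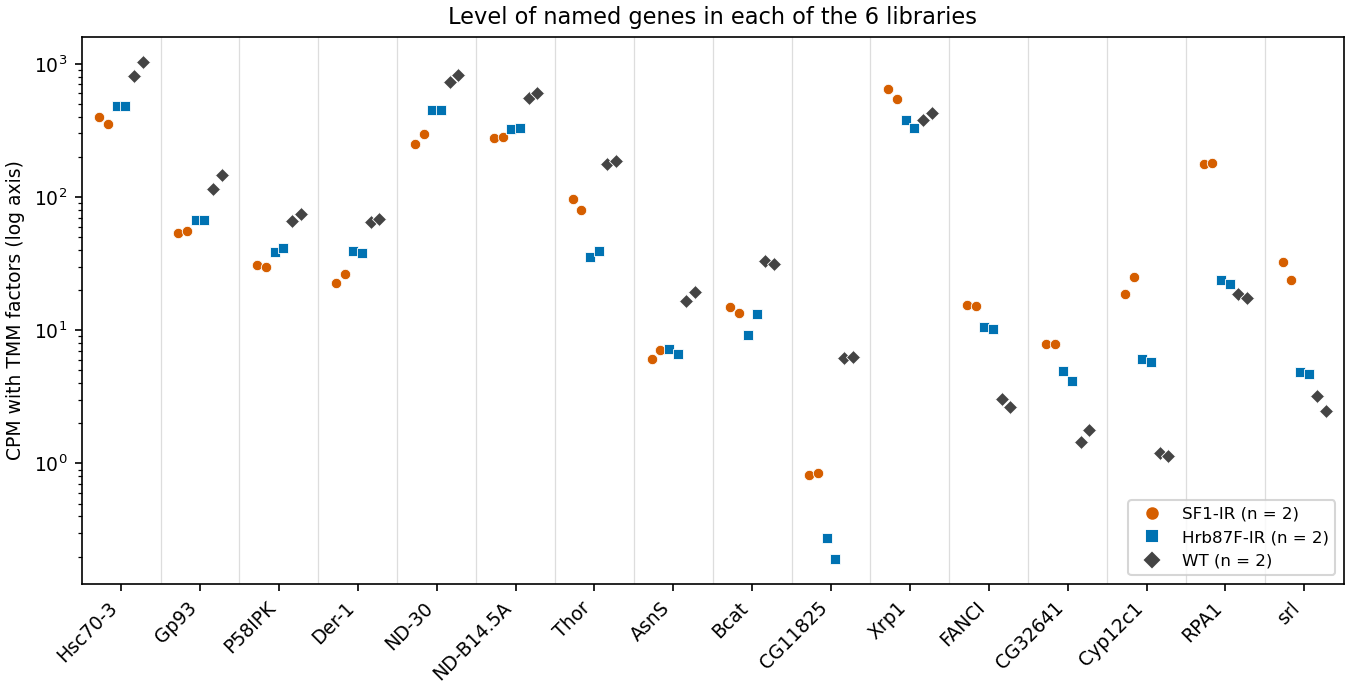
CPM with TMM factors on a log axis for 16 named genes, 1 point per library, 2 libraries each of SF1-IR, Hrb87F-IR and WT. From Hsc70-3 to CG11825 all 4 knockdown libraries lie below WT, Xrp1 overlaps WT in these exon-bin sums, and from FANCI to srl all 4 lie above it. With other WT columns (the counts per gene) Hsc70-3, Gp93, P58IPK and Der-1 have positive log2 fold changes, Xrp1 lies above WT, and Thor overlaps it.

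Exon use was tested for each bin against the other bins of its gene, with the 4 knockdown libraries as 1 group, in 8815 genes. At an unadjusted p under 0.01, the threshold of the study, 175 of 53818 bins were called (0.325%), fewer than the 1% that this threshold passes where nothing differs. Of these, 38 were less used in all 4 knockdown libraries (0.0706%) and 94 were more used (0.175%), in 108 genes, and 43 were not on one side. The use of a bin is said to have risen or fallen where it is among these 132, and it is called where its unadjusted p is under 0.01. The fit with 3 groups had p under 0.01 for 38 of the 38 and 91 of the 94. With limma instead of edgeR, p was under 0.01 with the same sign for 33 of the 38 but only 39 of the 94. At a Benjamini-Hochberg adjusted p under 0.05 there were 5 bins, of which Hsc70-3 E007, Pdha E005 and wupA E016 lay on one side in all 4 libraries, and in the fit with 3 groups there were 80, of which 66 did. Of the 94 bins more used, 27 had no count in either WT library. Of 17 named bins, 5 were called whichever library was left out (Hsc70-3 E007, Pdha E005, wupA E016, bt E036 and Zasp52 E015), and without WT replicate 1 or WT replicate 2 there were 6 and 8.

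Hsc70-3 changed in start exon as well as in level. Its bin E007, a first exon in the 5'-UTR of 249 bases (chromosome X, 11806869 to 11807117, minus strand, BDGP6.22), held 1.77% and 0.939% of the gene's counts in SF1-IR, with 1.21% and 1.04% in Hrb87F-IR, against 3.37% and 4.02% in WT. All 4 knockdown libraries were lower and use fell by 1.6 on the log2 scale (SE 0.21, edgeR adjusted p = 7.5e-04). The neighbouring E006 held 5.50% and 4.25% in SF1-IR, with 4.72% and 4.64% in Hrb87F-IR, against 4.15% and 4.13% in WT.

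In Xrp1, whose level overlapped WT in the exon-bin sums, first exons changed in use. E001, a first exon of 958 bases in the 5'-UTR (chromosome 3R, 18914968 to 18915925, plus strand), held 2.33% and 2.37% in SF1-IR, with 3.71% and 3.70% in Hrb87F-IR, against 10.9% and 11.8% in WT. Its use fell by 2.00 (SE 0.53). The edgeR adjusted p was 0.86 with 1 knockdown group and 4.5e-11 with 3 groups. E006, another start, of 76 bases, held 1.14% and 0.962% in SF1-IR, with 0.602% and 0.730% in Hrb87F-IR, against 0.201% and 0.152% in WT, and its use rose by 2.37 (SE 0.80). E001 was called in 5 of the 6 fits that left out 1 library, the exception being that without WT replicate 2, and E006 in those without either Hrb87F-IR replicate only. A further start, E002, held 10.1% and 8.71% in SF1-IR, with 7.52% and 7.18% in Hrb87F-IR, against 5.06% and 5.30% in WT, and was not called. E004 separated the knockdowns, with 3.11% and 2.67% in SF1-IR, with 0.356% and 0.493% in Hrb87F-IR, against 0.592% and 0.832% in WT.

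SmydA-8, chosen after its values were seen, also had a start less used and a start more used. E005 held 13.4% and 10.2% in SF1-IR, with 9.10% and 9.60% in Hrb87F-IR, against 25.9% and 27.5% in WT (log2 -1.34). E003 held 29.7% and 27.4% in SF1-IR, with 16.6% and 18.9% in Hrb87F-IR, against 10.8% and 11.9% in WT (log2 1.02). Both bins hold annotated transcript starts, and the groups overlapped at neither.

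Sarcomere genes held 28 of the 132 common bins, 3 less and 25 more used, in 12 of 36 genes. This was 4.61% of their 607 bins, against 0.0706% less used and 0.175% more used over all bins. Genes of the sarcomere are also among those with the most counts. In tn, a TRIM protein of the sarcomere, the coding bin E010 of 486 bases held 2.55% and 2.48% in SF1-IR, with 3.10% and 3.55% in Hrb87F-IR, against 0.764% and 0.725% in WT. Use rose by 1.98 (SE 0.50, edgeR adjusted p = 0.53), with a log2 change of 1.76 for SF1-IR, set beside 2.16 for Hrb87F-IR. The bin was no longer past the threshold without either WT replicate. In Mf, myofilin of the thick filament, E003 held 4.90% and 5.16% in SF1-IR, with 3.81% and 4.53% in Hrb87F-IR, against 2.26% and 2.52% in WT (log2 0.96). Its call was lost without either WT replicate and without SF1-IR replicate 2.

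Mhc had 5 common bins, all in coding exons and each a small share of the gene. E016 held 0.0122% and 0.0126% in SF1-IR, with 0.0150% and 0.0130% in Hrb87F-IR, against 0.00375% and 0.00531% in WT (log2 1.51). The count of this bin ran from 480 to 735 in the knockdown libraries, against 231 and 319 in WT. Bins E015, E024, E026 and E027 of Mhc were also more used in all 4 libraries. Strn-Mlck E029 (log2 0.84), up E003 of troponin T (log2 0.87), Tm1 E018 of tropomyosin (log2 1.07) and Act79B E002 (log2 1.35) were more used, and Tm1 had 6 common bins in all. The calls of Mhc E016 and Tm1 E018 were lost without WT replicate 1, those of up E003 and Act79B E002 without either WT replicate, and that of Strn-Mlck E029 without any one SF1-IR or WT replicate.

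A second set of sarcomere bins was far more used in SF1-IR than in Hrb87F-IR. In wupA, troponin I, E016 of the 5'-UTR held 0.531% and 0.414% in SF1-IR, with 0.126% and 0.107% in Hrb87F-IR, against 0.0802% and 0.0907% in WT. Use rose by 1.66 (edgeR adjusted p = 0.048), with a log2 change of 2.48 for SF1-IR, set beside 0.45 for Hrb87F-IR. In bt, projectin, E036 held 0.320% and 0.35% in SF1-IR, with 0.0806% and 0.0761% in Hrb87F-IR, against 0.0603% and 0.0580% in WT. Its E009 went the other way, with 0.0580% and 0.0743% in SF1-IR, with 0.224% and 0.164% in Hrb87F-IR, against 0.282% and 0.3% in WT (log2 -1.18). E009 lost its call in 4 of the 6 fits that left out a library, those without an SF1-IR or a WT replicate. In Zasp52, a Z-disc protein, E015 held 1.65% and 1.65% in SF1-IR, with 0.757% and 0.626% in Hrb87F-IR, against 0.515% and 0.525% in WT. Fhos E008, of a formin, and sls E026, of the kettin and titin-like gene, rose by 1.34 and 1.46. The call of Fhos E008 was lost without WT replicate 1, and that of sls E026 without SF1-IR replicate 1 or either WT replicate.

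**Figure D3:**
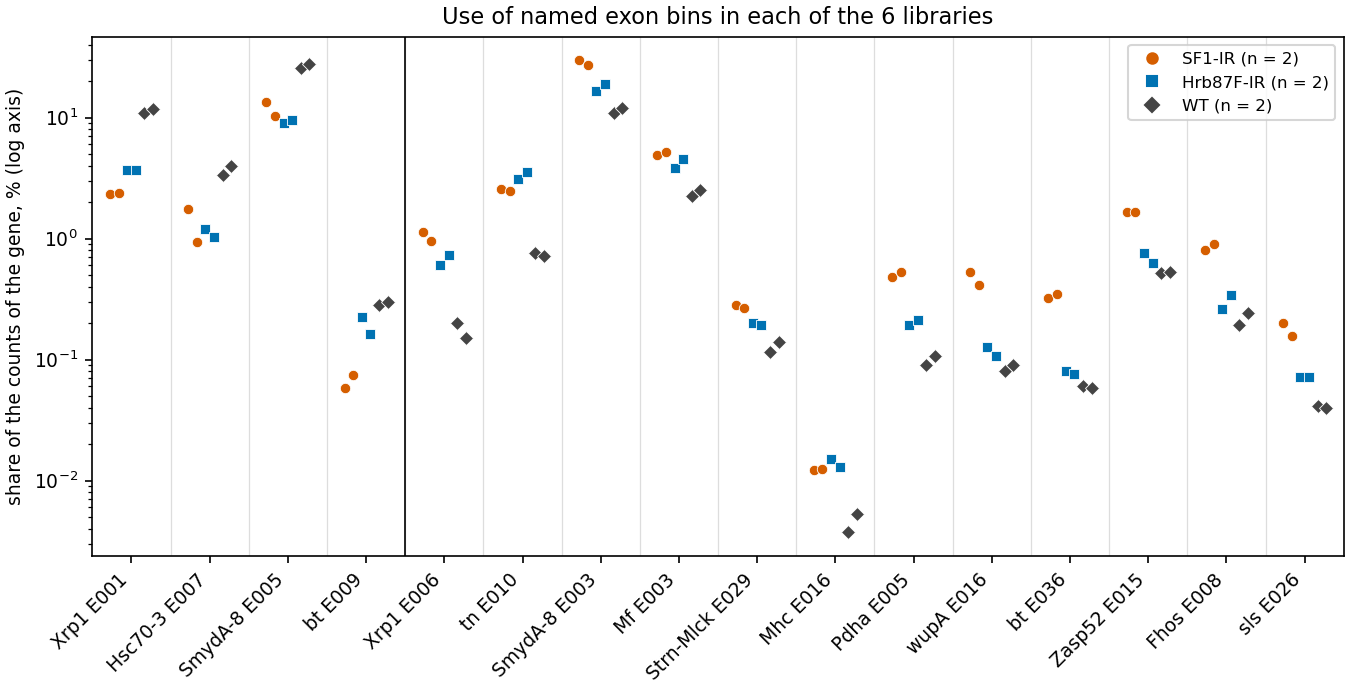
Share of the counts of its gene held by each of 16 exon bins, in percent on a log axis, 1 point per library, 2 libraries each of SF1-IR, Hrb87F-IR and WT. The 4 bins left of the vertical line are less used than WT in all 4 knockdown libraries and the 12 right of it are more used. For Xrp1 E001, tn E010 and Mhc E016 both knockdowns lie near each other, while for wupA E016 and bt E036 Hrb87F-IR lies close to WT.

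Outside the sarcomere, Pdha, the E1 alpha subunit of pyruvate dehydrogenase, had bin E005 at 0.483% and 0.524% in SF1-IR, with 0.193% and 0.212% in Hrb87F-IR, against 0.0901% and 0.108% in WT (log2 1.77, edgeR adjusted p = 0.0074). Some other common bins were chosen after their values were seen. In mub, a KH-domain RNA-binding protein, E014 was more used and E002 less used. In RpS19a the 5'-UTR bin E003 held 1.44% and 1.12% in SF1-IR, with 0.0701% and 0.0986% in Hrb87F-IR, against 0.0341% and 0.0368% in WT. In jp, junctophilin of muscle membrane contacts, the last bin E001 held 0.191% and 0.138% in SF1-IR, with 0.299% and 0.324% in Hrb87F-IR, against 0.559% and 0.531% in WT.

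Bins less and more used in all 4 libraries lay in different parts of transcripts. Of the 38 less used, 28.9% were 3'-UTR only, against 5.32% of the 94 more used and 5.28% of all bins tested. Bins of 5'-UTR only made up 23.7% of the less used and 29.8% of the more used, against 13.1% of all. Coding bins made up 15.8% of the less used and 42.6% of the more used, against 44.0% of all. A transcript end lay in 42.1% of the less used and 10.6% of the more used bins, against 21.0% of all. The median length was 255 bases for less used, 209 for more used and 254 for all bins. These shares are a description with no test. Of the 94 more used bins, 33 had at most 3 counts in each WT library, so that they entered the test through the knockdown libraries. This held for 0 of the 38 less used, of which 2 had at most 3 counts in each knockdown library. The shares were not taken without such bins.

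**Figure D4:**
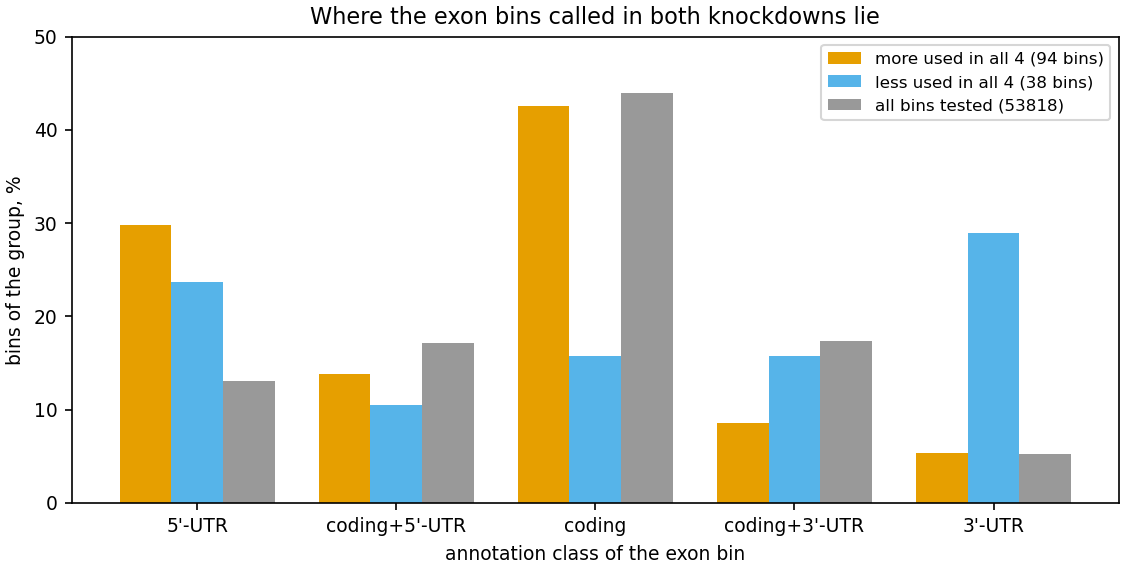
Percentage of exon bins in each annotation class (5'-UTR, coding, 3'-UTR and their overlaps), for the 94 bins more used and the 38 bins less used in all 4 knockdown libraries and for all 53818 bins tested. Bins in 3'-UTR make up 28.9% of the less used bins and 5.32% of the more used. Of the 94 more used bins, 33 had at most 3 counts in each WT library.

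SF1-IR and Hrb87F-IR differed directly, at an adjusted p under 0.05, for 7 of the 38 less used and 18 of the 94 more used bins. Over all bins tested this held for 214 (0.398%). The common bins were themselves selected in a fit that holds the same 4 libraries. Without both WT replicate 1 and SF1-IR replicate 2, the libraries with the most testis RNA, all 38 and all 94 kept their sign. The bins were chosen for lying on one side in all 4 libraries, which nearly fixed that outcome. The kept sign therefore tells nothing about the part of testis RNA.

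Common genes also differed from the others in exonic length and level. The level is the average over the same 6 libraries that the rule compares, so it is not independent of the rule. Genes lower in all 4 libraries had a median exonic length of 1572 bases and a median level of 4.24 log2 CPM, genes higher in all 4 had 2611 bases and 2.94 log2 CPM, and the remaining genes 1791 bases and 2.03 log2 CPM. On chromosome 4, 22 of 100 tested genes were lower in all 4 libraries (22.0%), against 9.54% to 13% on X and the arms of the other large chromosomes.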

How the data were processed

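The authors mapped reads with STAR 2.7.3a to BDGP6.22 (annotation dmel_r6.32), used SAMtools 1.1 and featureCounts of Subread 2.0.0, and deposited raw counts per exon bin and per gene without normalization. A read over several bins was counted in each. Their DESeq2 (1.32.0) and DEXSeq results hold fold changes and p-values and were used for bin positions only. Per-sample columns of those tables, 8 in all, were not used. Exon-bin counts were summed for 16428 genes (77774 bins). TMM factors were 1.10 and 1.14 for SF1-IR, 0.974 and 1.05 for Hrb87F-IR, and 0.922 and 0.844 for WT, and 10106 to 11675 genes per library had at least 10 counts.

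Genes were tested with edgeR 4.0.16 (filterByExpr, robust glmQLFit, glmQLFTest), and bins with diffSpliceDGE, since DEXSeq was not used here. R 4.3.3, limma 3.58.1, DESeq2 1.42.0, Python 3.11.15, pandas 2.3.3, numpy 2.4.6 and matplotlib 3.10.9 were used. Alternatives were RLE or library size scaling, other filters, DESeq2, limma, a replicate block, a testis term, the counts per gene and leaving out libraries. Scripts were tested on simulated data. Bin classes came from the BDGP6.54 annotation, whose boundaries held both ends of 99.2% of bins.

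Members, gene lists and the lists of markers were chosen with earlier results of these data known. Named genes were to be the 10 largest rises and falls among called common genes with at least 1 log2 CPM, up to 3 called common members of each list in each direction, Xrp1, Hsc70-3, CG11825, SF1 and Hrb87F. As the fit with 1 knockdown group called 0 genes, calls of the fit with 3 groups were used instead, a choice made after seeing the data. Named bins were the called bins of Xrp1, the common bins with an adjusted p under 0.05 and a mean of at least 20 counts, and the best common bin of each sarcomere gene in each direction.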

Additional observations from a re-analysis of the deposited data

Results flagged for a closer look

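SF1-IR and Hrb87F-IR lay on the same side of WT for these genes and bins but differed from each other in the direct contrast (adjusted p under 0.01 for genes and 0.05 for bins, edgeR). As log2 of SF1-IR over Hrb87F-IR, the difference was 3.45 for CG10445, 2.96 for RPA1, 2.73 for Rdh1 and 2.55 for srl. It was 2.40 for asRNA:CR44029, 1.88 for Cyp12c1, 1.87 for Tdh and 1.42 for Brr2. Each of these rises was larger in SF1-IR in the exon-bin sums, but that of asRNA:CR44029 was not in the counts per gene. Among falls the difference was 3.77 for Cyp6a20 and 1.23 for Thor, which were lower in Hrb87F-IR. For CG5793 it was -1.82, for GstT3 -1.27 and for Gpdh1 -1.14, and these were lower in SF1-IR.

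For exon use the same difference was 2.09 for bt E036, 2.04 for wupA E016, 1.52 for Fhos E008, 1.34 for sls E026, 1.321 for Pdha E005 and 1.25 for Zasp52 E015, each more used in SF1-IR, and -1.59 for bt E009, which was less used in SF1-IR. No named gene or bin had a knockdown library standing far apart from the other 3.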

How the results depend on the processing

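The fit with 1 knockdown group called 0 genes under every alternative except the fit with 3 groups (98), DESeq2 (202) and the counts per gene (985). For the fit with 3 groups, whose alternatives were chosen after seeing the data, the count was 261 with no filter, 521 with at least 10 counts in every library, 704 with testis marker level as a term, 162 with library size only, 849 with DESeq2, 1168 with the counts per gene, 538 at an adjusted p under 0.05, and 0 to 25 when 1 library was left out. The term for testis level kept all 98 calls and library size only kept 67. Exon bins numbered 175, and 407 with 3 groups, 388 with limma and 5 at an adjusted p under 0.05. Leaving out bins with 3 counts or fewer in every library of the knockdowns or of WT, there were 125, and leaving out 1 library gave 125 to 217.

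Replicate numbers did not pair the libraries. Deviations of same-numbered libraries correlated at 0.514 between SF1-IR and Hrb87F-IR, -0.735 between SF1-IR and WT and -0.558 between Hrb87F-IR and WT, across 11753 genes, which are not independent replicates. A block by number therefore joins WT libraries to knockdown libraries that deviate in the opposite direction, and the testis marker levels split the same way, with replicate 2 of each knockdown and replicate 1 of WT higher than the other replicate. With a replicate block the fit with 3 groups called 0 genes (111 at an adjusted p under 0.05, and 93 of the 98 were under 0.05), and 133 bins were called.

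With the counts per gene the log2 fold change turned positive for Hsc70-3 (1.13), Gp93 (0.14), P58IPK (0.88), Der-1 (0.0792), COX7AL2 (1.33), mRpS21 (2.02), lncRNA:CR44299 (0.77) and SF1 (0.0435). SF1 also did so with library size only (0.24), and lay between -0.17 and 0.16 when 1 library was left out, above 0 without SF1-IR replicate 2 (0.0593) or WT replicate 2. No other named gene or bin reversed under the alternatives tried.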

Other observations

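Of the genes lower in all 4 knockdown libraries, 1149 had a value in the counts per gene, where 50% were again below and 19.7% were above both WT columns. Of those higher in all 4, 1170 had a value, of which 58.9% were again above and 9.06% below. Over all genes tested there, 28.0% were below and 27.9% above both WT columns. Glycolysis genes were below both WT columns there in 12 of 14 cases.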
